A study of Mus musculus with 20 samples.

Results

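The genes described here were 35 cardiac and heart mesoderm genes among the 55573 genes of the deposited count table. They were chosen by name and mapped to their Ensembl identifiers, and the rule itself uses no measured value, although the list was drawn up with earlier results of these data known. By role they were 10 transcription factors, 7 thick filament genes, 5 thin filament genes, 5 genes of the Z-disc, titin and sarcomere assembly, 4 genes of ion handling, 2 natriuretic peptides and 2 Popeye proteins. Their levels were examined in 20 RNA-seq libraries of mouse embryoid body (EB) cultures, made from 4 induced pluripotent stem cell (iPSC) lines on days 0, 3, 5, 7 and 14. EBs are aggregates in which pluripotent cells differentiate towards derivatives of the germ layers.

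The wild type (WT) lines were WT#1-4 and WT#20D-17, and the lines without a working Nox4 gene were Nox4-/- #5-8 and Nox4-/- #5-23. Nox4 is an NADPH oxidase that produces hydrogen peroxide. All 4 lines were iPSCs grown with LIF on feeder fibroblasts that had been treated with mitomycin C. They were differentiated alike, without LIF, as hanging drops for 3 days and then on gelatin-coated plates. According to the study's methods, its iPSCs came from embryonic fibroblasts after retroviral transfer of Oct4, Sox2, Klf4 and c-Myc, so the lines it made also carried these factors. The labels name WT#20D-17 as wild type, but the paper does not describe that line or how it was made. The last day is 14 in the sample titles and 10 in the labels' protocol text, and 14 is used here. Each line gave 1 library per day, and a genotype was represented by 2 lines. Libraries of a line on different days share their cells of origin and are not independent replicates of a genotype.

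During heart formation, transcription factors such as Hand1, Hand2, Nkx2-5, Tbx5, Tbx20 and Isl1 mark the mesoderm that forms the heart tube and its chambers, and they control genes of the contractile apparatus. Cardiomyocytes then assemble sarcomeres, in which thick filaments of myosin pull on thin filaments of actin, and troponin on the thin filament makes this pull depend on calcium. EB cultures of mouse pluripotent cells are known to form beating areas, in which these genes are switched on together.

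Total counts per library were between 20294968 and 27708023. Levels are given as CPM, a gene's counts scaled to a common library size, after TMM correction of the library sizes. A gene was taken as detected above 3 counts, and 3 counts are at most 0.148 CPM before that scaling. These floors and the 95% intervals below cover counting error only. Nox4 itself had 3 to 22 counts in WT#1-4 and 56 to 203 counts in WT#20D-17. It had 0 to 2 counts in Nox4-/- #5-8 and 0 counts on every day in Nox4-/- #5-23. WT#20D-17 stood apart from the other lines in 4 of 5 pluripotency genes. On day 0 it had Nanog at 383 CPM and Esrrb at 123 CPM, while the highest level on any day in the other 3 lines was 1.03 CPM for Nanog and 0.21 CPM for Esrrb. Pou5f1 (Oct4) was at 1136 CPM on day 0 and at 21.3 CPM on day 14 in WT#20D-17, and at 1278 CPM or more on every day in the other lines. Zfp42 reached 41.6 CPM in WT#20D-17 and was at 0 in all other libraries. The 1 that did not stand apart was Sox2, at 195 CPM on day 0 in WT#20D-17, 202 CPM in Nox4-/- #5-23, 154 CPM in Nox4-/- #5-8 and 33.6 CPM in WT#1-4. These values do not separate transcripts of the cell's own Pou5f1 and Sox2 genes from those of introduced factors. Results are therefore given for the lines separately.

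All 35 genes were above 3 counts in at least 1 library, and 14 were above it in all 20. On at least 1 day, 35 were above it in WT#20D-17, 29 in WT#1-4, 24 in Nox4-/- #5-8 and 19 in Nox4-/- #5-23. In WT#20D-17 the summed level of the 35 genes was 40.4, 158, 747, 750 and 944 CPM on days 0, 3, 5, 7 and 14. It lay between 341 and 416 CPM in WT#1-4, between 185 and 237 CPM in Nox4-/- #5-8 and between 169 and 248 CPM in Nox4-/- #5-23. WT#20D-17 thus started lowest and ended highest, while the other lines kept to a narrow range. Single genes weighed heavily in the sum. Ryr2 alone made up 30.8% to 54.6% of it in WT#1-4, and Meis2 23.4% to 29.6% in Nox4-/- #5-8. The 7 thick filament genes summed to 0.57 to 6.29 CPM in WT#1-4, 0.918 to 9.65 CPM in Nox4-/- #5-8 and 0.483 to 1.6 CPM in Nox4-/- #5-23. On day 7, 26 of the 35 genes had their highest level in WT#20D-17, 6 in WT#1-4, 2 in Nox4-/- #5-8 and 1 in Nox4-/- #5-23. In bulk cultures such as these, fewer cells of a type and less RNA per cell cannot be told apart.

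**Figure D1:**
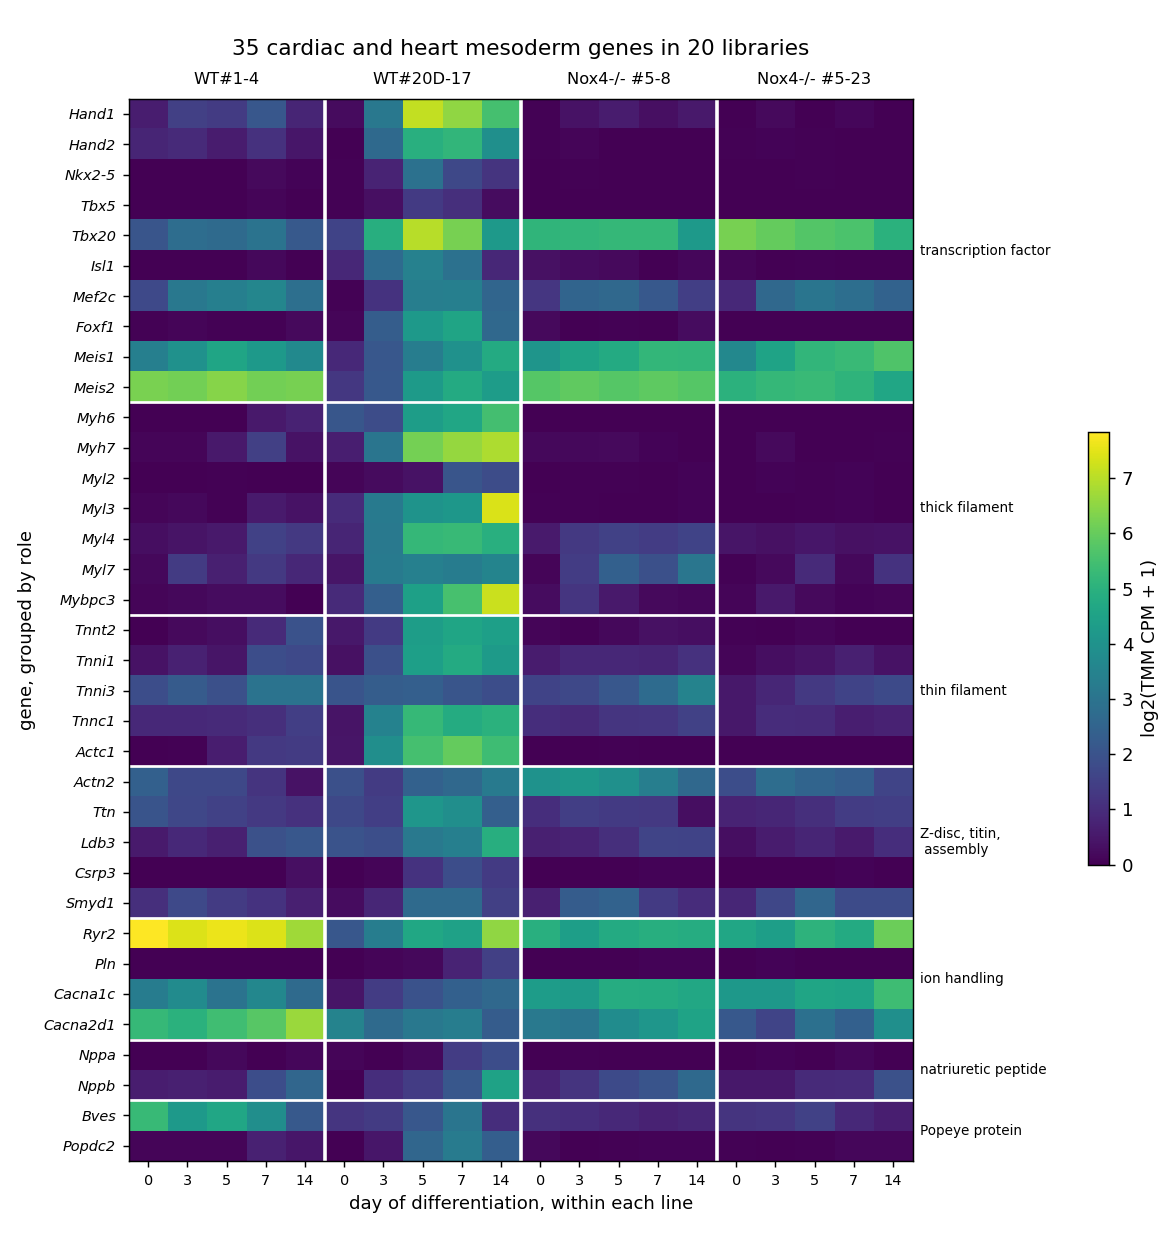
Heat map of log2(TMM CPM + 1) for the 35 genes (rows, grouped by role) in the 20 libraries (columns, days 0 to 14 within each of the 4 lines), 1 library per cell. In WT#20D-17 most rows brighten from day 3 or day 5, while in WT#1-4 and the Nox4-/- lines most sarcomere rows stay dark and Ryr2, Meis1, Meis2, Cacna1c and Cacna2d1 are visible from day 0.

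Among the transcription factors, Hand1 (chr11:57828705-57832818 of GRCm38), a basic helix-loop-helix factor of the first heart field and of extraembryonic mesoderm, reached the highest level. Hand1 was at 0.532, 1.79, 1.57, 3.41 and 0.744 CPM in WT#1-4 on days 0, 3, 5, 7 and 14, and at 0.164, 7.8, 137, 90.7 and 45.4 CPM in WT#20D-17. In Nox4-/- #5-8 it was at 0.0399, 0.294, 0.497, 0.241 and 0.464 CPM, and in Nox4-/- #5-23 at 0, 0.137, 0, 0.0888 and 0 CPM. Both wild type lines and Nox4-/- #5-8 thus had their highest Hand1 level after day 0. Every library of WT#1-4 was above every Nox4-/- library, but the nearest values were within counting error. They were 14 counts in WT#1-4 on day 0 (95% interval 0.317 to 0.893 CPM) and 13 in Nox4-/- #5-8 on day 5 (0.29 to 0.85 CPM). The peak of Hand1 over day 0 was 837-fold in WT#20D-17 (95% interval 327 to 3075, 4 counts on day 0) and 6.42-fold in WT#1-4 (3.63 to 12.2). In Nox4-/- #5-8 it was 12.5-fold (1.87 to 529, 13 counts after 1), and Nox4-/- #5-23 had at most 3 counts in a library. Hand1 is also in the study's own primer list.

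Hand2, a related factor of the second heart field and the right ventricle, was at 0.76, 0.914, 0.522, 1.18 and 0.397 CPM in WT#1-4 on days 0 to 14. It was at 0, 5.43, 29.7, 34.4 and 13.8 CPM in WT#20D-17. In Nox4-/- #5-8 it was at 0.0399 and 0.0839 CPM on days 0 and 3 and at 0 after that, and in Nox4-/- #5-23 at 0.0372, 0.0458, 0.0378, 0 and 0 CPM, with at most 2 counts in a library. All WT#1-4 libraries, with 8 to 31 counts, were above all Nox4-/- libraries. Hand2 overlaps the RNA Hand2os1 on the opposite strand, which was at 14.2 CPM or less in WT#20D-17 and at 0.493 CPM or less elsewhere. It is not stated whether counting used the strand, and its part in these values was not tested.

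Tbx20, a T-box factor of heart chambers and valves, went the other way in the Nox4-/- lines. It was at 3.15, 5.92, 5.52, 6.94 and 3.52 CPM in WT#1-4 and at 1.97, 29.3, 127, 74 and 17.5 CPM in WT#20D-17. It was already at 34.2 CPM on day 0 in Nox4-/- #5-8, followed by 34.7, 36.3, 35.9 and 18 CPM, and at 73.3, 62, 52.7, 48.5 and 31 CPM in Nox4-/- #5-23. All Nox4-/- libraries were above all WT#1-4 libraries, and they overlapped with WT#20D-17. In both Nox4-/- lines the lowest level was on day 14, where in WT#20D-17 day 0 was lowest.

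Meis2, a homeobox cofactor of many tissues besides heart, was at 75.7, 70.6, 83.2, 71.1 and 73.4 CPM in WT#1-4 and at 1.39, 3.45, 18.3, 26.9 and 19.1 CPM in WT#20D-17. It was at 53, 59.8, 53, 58.5 and 53.3 CPM in Nox4-/- #5-8 and at 31.8, 36, 38.3, 33 and 24.1 CPM in Nox4-/- #5-23. The order WT#1-4, Nox4-/- #5-8, Nox4-/- #5-23 held without overlap, and WT#20D-17 reached the range of the lowest of them on day 7. Its relative Meis1 was between 9.31 and 23.1 CPM in WT#1-4, between 16 and 35.3 CPM in Nox4-/- #5-8, between 11.5 and 50.6 CPM in Nox4-/- #5-23 and between 0.861 and 26.9 CPM in WT#20D-17.

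The remaining factors were mainly detected in WT#20D-17. Nkx2-5, the homeobox factor of cardiac progenitors, reached 6.54 CPM there on day 5. It had at most 4 counts in a library of WT#1-4 and at most 1 count in any Nox4-/- library. Tbx5, the T-box factor of the first heart field, reached 1.53 CPM in WT#20D-17 on day 5 and was at 0 counts in all 10 Nox4-/- libraries. Isl1, the LIM homeobox factor of second heart field progenitors, reached 9.85 CPM in WT#20D-17, 0.114 CPM in WT#1-4 and 0.279 CPM in the Nox4-/- lines. Foxf1, a forkhead factor of lateral and splanchnic mesoderm, reached 22.7 CPM in WT#20D-17 and 0.185 CPM or less in the other lines. Mef2c, a MADS box factor of muscle that is also used in neurons and endothelium, was different. It peaked at 11.2 CPM in WT#1-4, 9.41 CPM in WT#20D-17, 5.28 CPM in Nox4-/- #5-8 and 7.18 CPM in Nox4-/- #5-23.

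**Figure D2:**
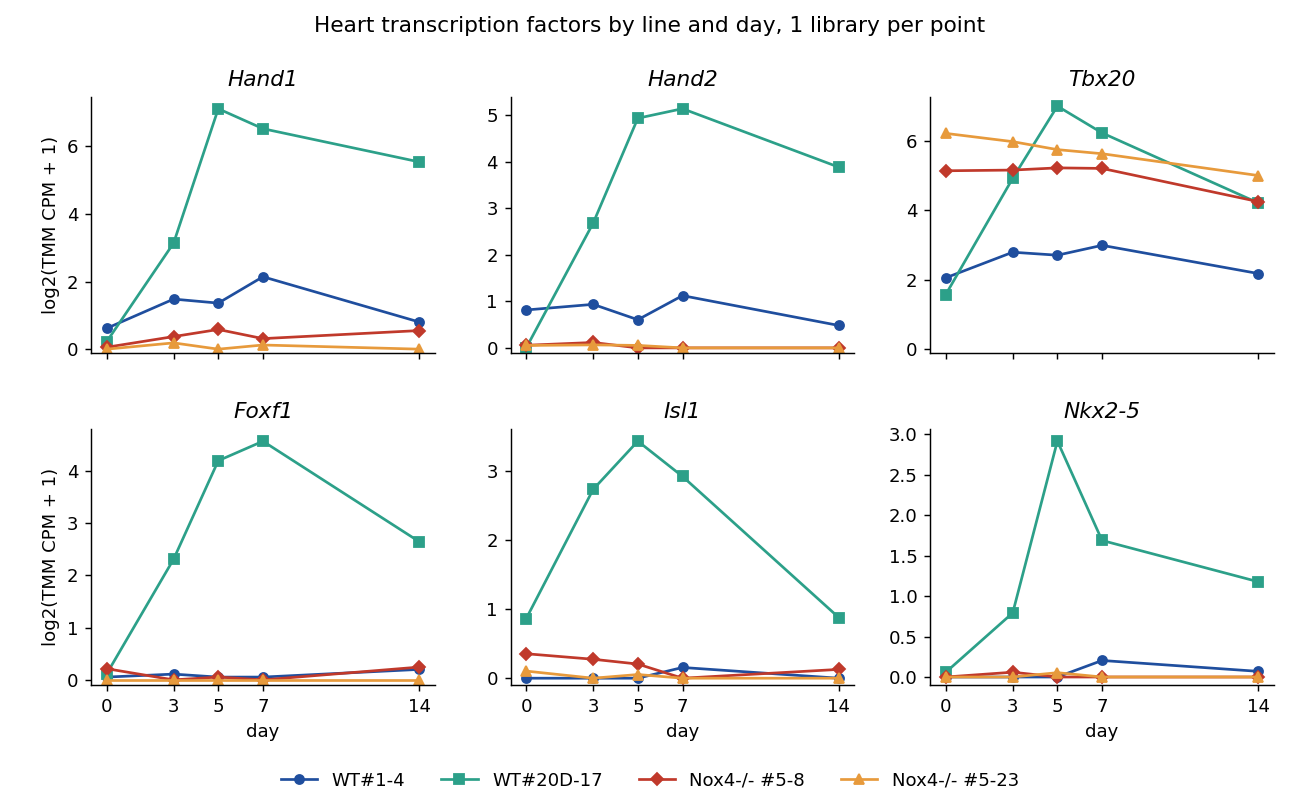
Log2(TMM CPM + 1) against day for Hand1, Hand2, Tbx20, Foxf1, Isl1 and Nkx2-5, 1 line of points per iPSC line and 1 library per point. WT#20D-17 peaks on day 5 or day 7 in each panel, and Tbx20 is the panel in which both Nox4-/- lines lie above WT#1-4 on every day.

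Sarcomere genes were next examined, first for what their promoters share. Promoters of 250 bases before to 50 bases after the RefSeq start site on GRCm38.p6 were given for 31 of the 35 genes, with 41 promoters between them. None was given for Hand1, Tbx5, Foxf1 and Bves. The SRF box, bound by serum response factor at muscle and growth genes, was found in 5 of the 41 promoters (12.2%), those of Myl3, Myl7, Actc1 and Ldb3, of which Ldb3 has 2 overlapping promoters. It was found in 1.63% of all 32851 mouse promoters searched the same way. A match is a description of the letters and not evidence of binding. The promoters of 3 of these genes, which code for filament proteins, are shown 5′ to 3′ on the gene's strand, with the SRF box in capitals.
Myl3, plus strand, chr9:110763428-110763727: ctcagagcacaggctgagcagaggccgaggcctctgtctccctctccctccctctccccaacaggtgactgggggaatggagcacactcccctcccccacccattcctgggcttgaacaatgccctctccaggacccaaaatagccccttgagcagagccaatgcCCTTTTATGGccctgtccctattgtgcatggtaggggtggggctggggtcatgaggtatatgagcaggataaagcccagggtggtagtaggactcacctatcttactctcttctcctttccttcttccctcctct
Myl7, minus strand, chr11:5898733-5899032: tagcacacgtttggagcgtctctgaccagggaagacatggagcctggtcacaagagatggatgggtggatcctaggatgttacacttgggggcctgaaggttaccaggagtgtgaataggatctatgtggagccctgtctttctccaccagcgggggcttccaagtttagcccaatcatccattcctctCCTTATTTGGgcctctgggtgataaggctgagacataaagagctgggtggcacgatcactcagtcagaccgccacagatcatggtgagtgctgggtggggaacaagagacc
Actc1, minus strand, chr2:114052826-114053125: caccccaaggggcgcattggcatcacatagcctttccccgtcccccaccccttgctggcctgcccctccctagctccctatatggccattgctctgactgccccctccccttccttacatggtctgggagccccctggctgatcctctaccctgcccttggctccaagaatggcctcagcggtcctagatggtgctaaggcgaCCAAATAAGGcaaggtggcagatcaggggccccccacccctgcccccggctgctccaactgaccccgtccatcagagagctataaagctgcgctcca

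None of these SRF boxes overlapped another motif that was searched. Motifs were searched on both strands. The MEF2 box was in 4.88% of the promoters of the heart genes, those of Mybpc3 and Ttn, and in 0.557% of all promoters. A GATA site (AGATAA or TGATAA) was in 24.4% and 18.6%, an NKX2 site (TNAAGTG) in 12.2% and 11.5%, and a TATA box (TATAAA) in 24.4% and 13.6%. Srf itself was at 56.9 to 105 CPM in WT#20D-17 and at 18.7 to 43.8 CPM in the other lines, so all libraries of WT#20D-17 were above all others. Its part in the levels of the genes with the box was not tested.

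The myosin heavy chains Myh6 and Myh7 lie next to each other on the minus strand, at chr14:54941921-54966927 and chr14:54970684-54994626. They are near-identical copies, so reads that fit both were divided between them by the authors' counting. Myh6, the fast alpha chain of the atria and of the adult mouse ventricle, was at 0, 0, 0, 0.455 and 0.694 CPM in WT#1-4 and at 3.28, 2.5, 19.6, 23.7 and 43.8 CPM in WT#20D-17. It had 0 counts in all 10 Nox4-/- libraries. Against the floor of 3 counts per library, its mean in WT#20D-17 was at least 149-fold higher than in the Nox4-/- lines, and its mean in WT#1-4 at least 1.84-fold higher. Myh7, the slow beta chain of the embryonic heart, was at 0.076, 0.0795, 0.447, 1.82 and 0.297 CPM in WT#1-4 and at 0.574, 7.19, 72.7, 96.1 and 117 CPM in WT#20D-17. It was at 0.12, 0.126, 0.153, 0.0482 and 0 CPM in Nox4-/- #5-8 and at 0, 0.137, 0, 0 and 0.0365 CPM in Nox4-/- #5-23. WT#20D-17 was above all libraries of the other lines from day 3, and WT#1-4 overlapped with the Nox4-/- lines on days 0 and 3.

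In WT#20D-17 the myosin light chains were also highest after day 0, Myl2 and Myl4 on day 7 and Myl3 and Myl7 on day 14. Myl3, the essential light chain of ventricle and slow muscle, was at 0.076, 0.119, 0.0373, 0.493 and 0.297 CPM in WT#1-4 and at 0.943, 8.31, 15.4, 16.7 and 167 CPM in WT#20D-17. In Nox4-/- #5-8 it was at 0.0399, 0.042, 0, 0 and 0.0464 CPM, and in Nox4-/- #5-23 at 0, 0, 0.0378, 0.0444 and 0 CPM, which overlapped with WT#1-4 on day 5. Myl3 shares sequence on the opposite strand with Pth1r, a hormone receptor gene that was at 16.4, 58.3, 109, 161 and 237 CPM in WT#20D-17 and at 5.92 CPM or less elsewhere. Without knowing whether counting used the strand, reads of these neighbours cannot be told apart. Myl4, the essential light chain of the atria and the embryonic heart, was at 0.228, 0.318, 0.447, 1.86 and 1.44 CPM in WT#1-4 and at 0.738, 7.97, 36.2, 37.8 and 29.9 CPM in WT#20D-17. It was at 0.479, 1.47, 1.87, 1.64 and 1.99 CPM in Nox4-/- #5-8 and at 0.372, 0.275, 0.378, 0.266 and 0.292 CPM in Nox4-/- #5-23, and both overlapped with WT#1-4. Myl7, the atrial regulatory light chain, reached 10.5 CPM in WT#20D-17 and 7.47 CPM in Nox4-/- #5-8 on day 14. It reached 1.55 CPM in WT#1-4 and 1.2 CPM in Nox4-/- #5-23. Myl2, the ventricular regulatory light chain, reached 3.15 CPM in WT#20D-17 and had at most 1 count in any library of WT#1-4.

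Mybpc3, the myosin-binding protein C of the heart, was at 0.902, 4.22, 20.7, 45.9 and 148 CPM in WT#20D-17. It was at 0.076, 0.119, 0.186, 0.19 and 0 CPM in WT#1-4. In Nox4-/- #5-8 it was at 0.2, 1.3, 0.459, 0.144 and 0.0927 CPM, and in Nox4-/- #5-23 at 0.0743, 0.458, 0.151, 0.0444 and 0.0729 CPM. In WT#20D-17 its level on day 14 was 164-fold that on day 0 (95% interval 108 to 263), and in both Nox4-/- lines the highest level was on day 3.

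On the thin filament, Actc1 is the cardiac alpha actin. It was at 0, 0.0397, 0.559, 1.44 and 1.59 CPM in WT#1-4 and at 0.369, 13.6, 44.6, 62.3 and 41.4 CPM in WT#20D-17. It had 1 count in Nox4-/- #5-8 on day 5 (0.0382 CPM) and 0 counts in the other 9 Nox4-/- libraries. Thus 3 of the 5 libraries of WT#1-4 were above the floor and none of the Nox4-/- libraries was, with 32 counts in WT#1-4 on day 14 after 0 counts on day 0, which is at least 13.9-fold higher. Tnnc1, the calcium-binding troponin C of heart and slow muscle, was at 0.874, 0.874, 0.895, 1.1 and 1.74 CPM in WT#1-4 and at 0.328, 10.1, 37, 27.1 and 31.3 CPM in WT#20D-17. It was at 1.04, 0.923, 1.3, 1.35 and 1.85 CPM in Nox4-/- #5-8 and at 0.409, 1.01, 0.945, 0.577 and 0.693 CPM in Nox4-/- #5-23. WT#1-4 and the Nox4-/- lines overlapped in Tnnc1.

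Tnnt2, the cardiac troponin T, reached 23.5 CPM in WT#20D-17 on day 7 and 2.93 CPM in WT#1-4 on day 14. That level in WT#1-4 was 59 counts after 0 counts on day 0, at least 25.7-fold higher, while the highest level in a Nox4-/- library was 0.289 CPM. Tnni1, the troponin I of the embryonic heart and slow muscle, reached 26.9 CPM in WT#20D-17, 2.62 CPM in WT#1-4, 1.16 CPM in Nox4-/- #5-8 and 0.622 CPM in Nox4-/- #5-23. Tnni3, the troponin I of the mature heart, did not follow this order. It was highest in Nox4-/- #5-8 on day 14, at 10.4 CPM, against 6.99 CPM in WT#1-4, 4.14 CPM in WT#20D-17 and 2.41 CPM in Nox4-/- #5-23. Tnni3 overlaps its neighbour Dnaaf3 on the same strand, which was detected in all 4 lines at up to 14.9 CPM. Scaled by exon length, the highest filament genes in WT#20D-17 on day 5 were Tnnc1 at 35.5, Actc1 at 27.6 and Myl7 at 16.2 CPM per kb. Myl3 was further down, at 7.53 CPM per kb.

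**Figure D3:**
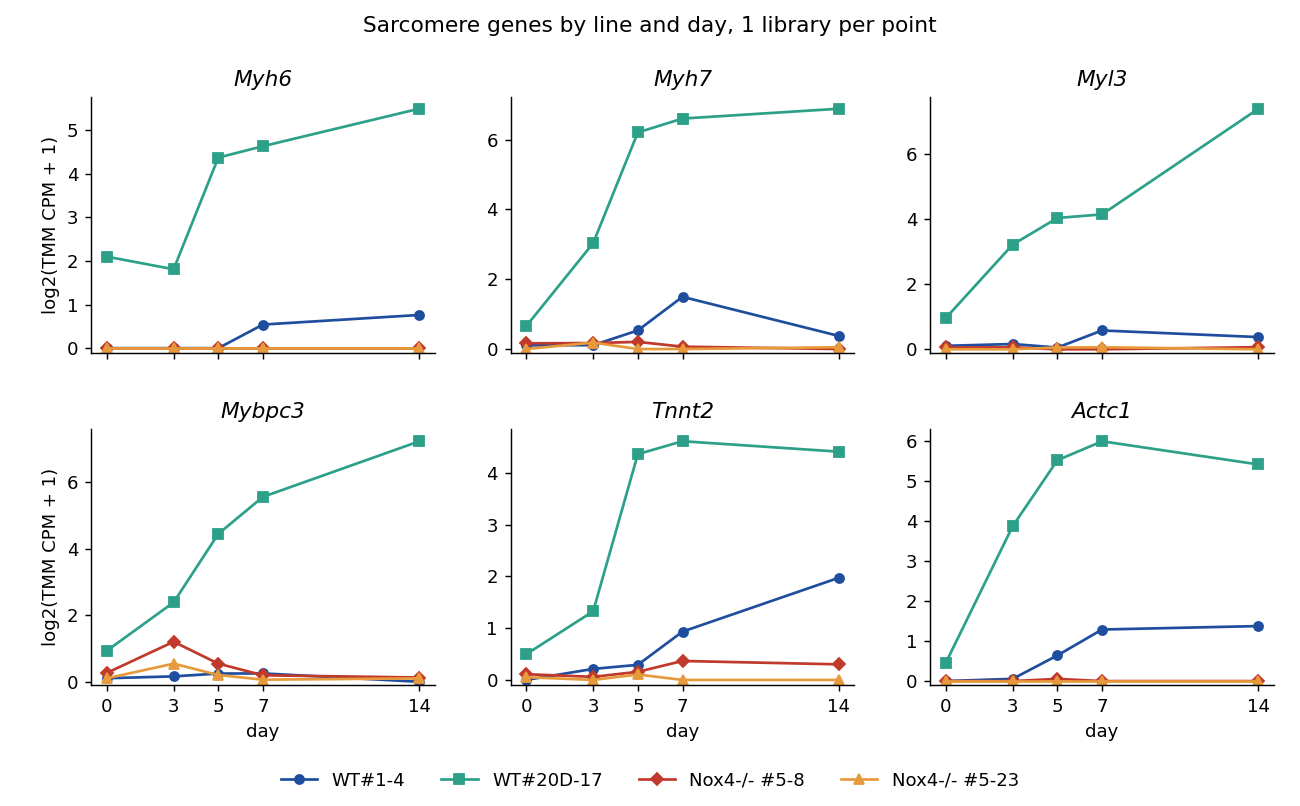
Log2(TMM CPM + 1) against day for Myh6, Myh7, Myl3, Mybpc3, Tnnt2 and Actc1, 1 library per point. WT#20D-17 is above the other lines in each panel from day 3, WT#1-4 reaches 2.93 CPM for Tnnt2 and 1.59 CPM for Actc1 on day 14, and the highest Nox4-/- value in these panels is 1.3 CPM, for Mybpc3 in Nox4-/- #5-8 on day 3.

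Of the 5 genes of the Z-disc, titin and assembly, 4 had their highest level in WT#20D-17 and Actn2 had it in Nox4-/- #5-8. Ldb3, a Z-disc scaffold, reached 28.9 CPM in WT#20D-17 and 3.37 CPM in WT#1-4, both on day 14, 2.07 CPM in Nox4-/- #5-8 on day 7 and 1.02 CPM in Nox4-/- #5-23 on day 14. Ttn, the giant filament titin, reached 16.3 CPM in WT#20D-17 on day 5 and was between 0.232 and 3.08 CPM in the other lines. Csrp3, a muscle LIM protein, was above 3 counts in WT#20D-17 and in WT#1-4 on day 14, where it had 5 counts. Actn2, the alpha-actinin that anchors actin at the Z-disc, reached 16.6 CPM in Nox4-/- #5-8. It reached 8.24 CPM in WT#20D-17, 6 CPM in Nox4-/- #5-23 and 4.25 CPM in WT#1-4, where day 0 was highest. Smyd1, a methyltransferase of muscle assembly, was between 0.205 and 5.59 CPM in all, and it peaked at 5.59 CPM in WT#20D-17, 5.03 CPM in Nox4-/- #5-23, 4.51 CPM in Nox4-/- #5-8 and 2.34 CPM in WT#1-4.

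The natriuretic peptides are hormones of stretched heart muscle. Nppb was highest on day 14 in every line, at 21.6 CPM in WT#20D-17, 4.96 CPM in WT#1-4, 5.43 CPM in Nox4-/- #5-8 and 2.81 CPM in Nox4-/- #5-23. Its level on day 14 was 9.32-fold that on day 0 in WT#1-4 (95% interval 5.31 to 17.7), 7.55-fold in Nox4-/- #5-8 (4.57 to 13.2) and 6.87-fold in Nox4-/- #5-23 (3.63 to 14.3). In WT#20D-17 it had 412 counts after 0, at least 176-fold higher. Nppa, the atrial peptide, reached 2.62 CPM in WT#20D-17 and was at 0.112 CPM or less in the other lines. Among the Popeye proteins, which bind cAMP in heart and skeletal muscle membranes, Popdc2 reached 8.57 CPM in WT#20D-17, 0.645 CPM in WT#1-4 and 0.12 CPM in the Nox4-/- lines.

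Ryr2, Cacna2d1 and the Popeye gene Bves were abundant in WT#1-4 already on day 0. Ryr2 (chr13:11553102-12106945), the calcium release channel of heart and brain, was at 227, 170, 195, 170 and 105 CPM in WT#1-4 and at 3.36, 8.91, 24.3, 21.4 and 90.9 CPM in WT#20D-17. It was at 29.9, 20, 26.8, 29.1 and 28.1 CPM in Nox4-/- #5-8 and at 23.8, 20.2, 32.6, 26.4 and 66.8 CPM in Nox4-/- #5-23. WT#1-4 was highest on each day and did not overlap with the Nox4-/- lines, whereas WT#20D-17 overlapped with them on days 5 and 7. Pln, phospholamban, the inhibitor of the calcium pump, reached 1.78 CPM in WT#20D-17 and had at most 1 count in any library of the other lines.

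Bves, Cacna1c and Cacna2d1 were in lists that the study chose on these samples, so their differences are not independent evidence of a direction. Cacna1c, the pore subunit of the L-type calcium channel of heart, smooth muscle and neurons, was at 8.74, 12.6, 6.9, 11.4 and 5.5 CPM in WT#1-4 and at 0.369, 1.64, 2.96, 4.26 and 5.3 CPM in WT#20D-17. It was at 19.1, 18.4, 27.6, 27.2 and 24.9 CPM in Nox4-/- #5-8 and at 17.1, 17.1, 23.4, 22.1 and 41.3 CPM in Nox4-/- #5-23. Each Nox4-/- library was above each wild type library. Cacna2d1, an auxiliary subunit of that channel, was at 36.9, 30.9, 42.3, 54.9 and 100 CPM in WT#1-4 and at 10.3, 5.51, 7.8, 9.06 and 3.88 CPM in WT#20D-17. It was at 7.94, 7.26, 12.9, 16.3 and 22.4 CPM in Nox4-/- #5-8 and at 3.42, 2.06, 6.43, 4.31 and 14 CPM in Nox4-/- #5-23. The pore and its auxiliary subunit thus stood in opposite order between WT#1-4 and the Nox4-/- lines, and the Nox4-/- lines overlapped with WT#20D-17 in Cacna2d1. Bves (chr10:45335772-45372479) was at 37.5, 18, 23.9, 13.7 and 3.57 CPM in WT#1-4 and at 1.31, 1.59, 3.4, 7.28 and 1.05 CPM in WT#20D-17. It was at 1.12, 1.05, 0.879, 0.674 and 0.788 CPM in Nox4-/- #5-8 and at 1.26, 1.37, 1.85, 0.888 and 0.583 CPM in Nox4-/- #5-23, below all libraries of WT#1-4 and overlapping with WT#20D-17. Bves was lowest on day 14 in WT#1-4, while most sarcomere genes of that line were highest on day 7 or day 14.

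**Figure D4:**
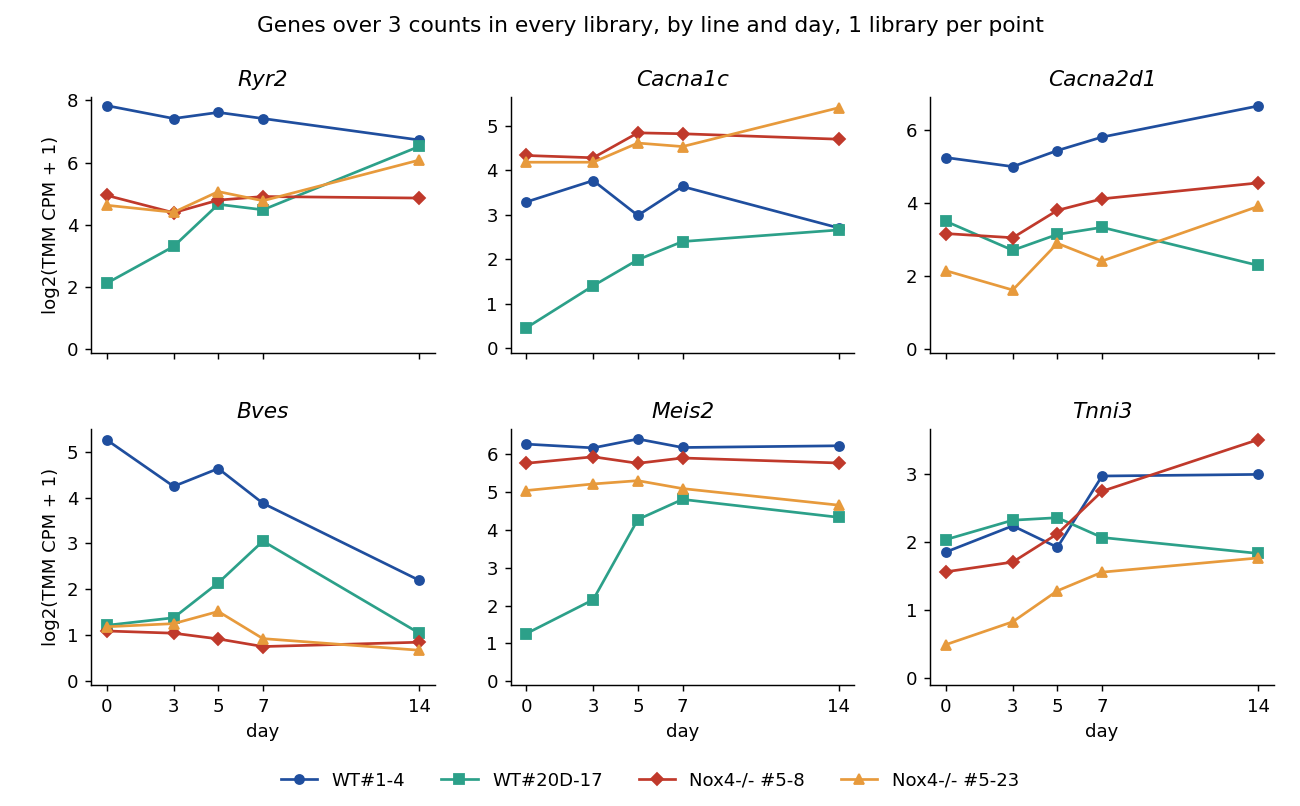
Log2(TMM CPM + 1) against day for Ryr2, Cacna1c, Cacna2d1, Bves, Meis2 and Tnni3, each above 3 counts in all 20 libraries, 1 library per point. WT#1-4 is the highest line on each day for Ryr2, Cacna2d1, Bves and Meis2, and both Nox4-/- lines are above both wild type lines for Cacna1c.

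The study asked what the loss of Nox4 changes during differentiation. It combined a pooled comparison of the lines it named with a test of courses over the days. The pooled comparison, used here, takes day 0 together with later days, so it cannot tell a change during differentiation from an earlier difference. The course is tested further below, as the interaction of genotype and day. Against WT#1-4, 9 of the 35 genes were lower and 2 were higher in the Nox4-/- lines at a false discovery rate (FDR) under 0.01 by edgeR's exact test, where over all 33860 genes tested 3.97% were called lower and 1.65% higher. Lower were Hand1, Hand2, Meis2, Myh7, Myl3, Actc1, Ryr2, Cacna2d1 and Bves, and higher were Tbx20 and Cacna1c. Cacna2d1, Bves and Cacna1c were in lists that the study chose on these samples. Their calls, and their part in the counts here, are therefore not independent evidence. The median log2 fold change of the 35 genes was -0.79, or -0.76 with genes at 0 counts in a group set to their bound, and the median over all genes was 0.00. By role, 3 of 10 transcription factors, 2 of 7 thick filament genes, 1 of 5 thin filament genes, 2 of 4 ion handling genes and 1 of 2 Popeye genes were lower, and none of the 5 Z-disc and assembly genes was called. This comparison takes the days of a line as replicates and rests on 1 wild type line. Without the libraries of day 7, 7 genes were called in place of 11, and 3.29% of all genes.

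In single genes, Hand2 was lower in the Nox4-/- lines by a log2 fold change of -4.68 (FDR 2.97e-15, exact test), and Hand1 by -3.17 (FDR 0.000431). Bves had -4.20 (FDR 1.2e-21), Ryr2 -2.51 (FDR 3.38e-20) and Cacna2d1 -2.45 (FDR 1.17e-06) in the same test. Actc1 had 86 counts in WT#1-4 against 1 in the Nox4-/- lines (FDR 9.17e-06). Meis2 differed least, by -0.76 (FDR 0.00697). Tbx20 was higher by 3.09 (FDR 1.67e-16) and Cacna1c by 1.40 (FDR 2.56e-05). Tnnt2 had a log2 fold change of -3.22 (FDR 0.0112), Myh6 had 26 counts against 0 (FDR 0.0247) and Actn2 had 1.94 (FDR 0.0221), and these 3 did not pass the threshold.

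When the Nox4-/- lines were set against WT#20D-17 instead, 23 of the 35 genes were lower and 2, Meis2 and Cacna1c, were higher. Over all genes 16% were called lower and 9.83% higher. The median log2 fold change of the 35 genes was -4.63, against -0.02 over all genes. Hand1, Hand2, Nkx2-5, Isl1 and Foxf1 had log2 fold changes between -9.12 and -5.72, and Tbx5, at 0 counts in the Nox4-/- lines, was at least 4.96-fold higher in WT#20D-17. Both comparisons use the same Nox4-/- libraries. Of the genes named above, Cacna1c was higher in the Nox4-/- lines against either wild type line, by 1.40 and 3.04 (FDR 7.48e-10). Tbx20 (-0.23, FDR 0.879), Ryr2 (0.03, FDR 1) and Cacna2d1 (0.41, FDR 0.67) did not pass the threshold against WT#20D-17, and Meis2 (1.68, FDR 0.00373) had the opposite direction.

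The wild type lines differed from each other in more of these genes than WT#1-4 did from the Nox4-/- lines. The same held for all genes, of which 17.7% were called between the wild type lines and 5.62% between WT#1-4 and the Nox4-/- lines. WT#20D-17 was higher than WT#1-4 in 19 of the 35 genes and lower in 4, where 9.96% and 7.78% of all genes were called. All 7 thick filament genes and 7 of 10 transcription factors were higher. Mybpc3 had a log2 fold change of 8.48 (FDR 1.06e-08, exact test), Myl3 of 7.61 (FDR 2.72e-07) and Isl1 of 7.35 (FDR 2.87e-08). Lower were Meis2 (-2.46, FDR 0.000647), Ryr2 (-2.57, FDR 0.00126), Cacna2d1 (-2.87, FDR 1.36e-10) and Bves (-2.74, FDR 0.000581). Without the libraries of day 5, 12 of the 35 genes were called in place of 23, and 12.5% of all genes. Between the Nox4-/- lines, 3 genes were lower in #5-23 than in #5-8 and 0 were higher, where 1.14% and 1.05% of all genes were called. They were Meis2 (-0.77, FDR 0.00373), Myl4 (-2.21, FDR 0.000319) and Actn2 (-1.63, FDR 0.00398). These 3 calls were not kept without the libraries of day 3, day 5 or day 7, with 0 genes called each time against 1.08%, 0.803% and 0.907% of all genes, and without day 0 there was 1. An unadjusted p under 0.05 was found for 14 of the 35 genes and for 10.5% of all genes.

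**Figure D5:**
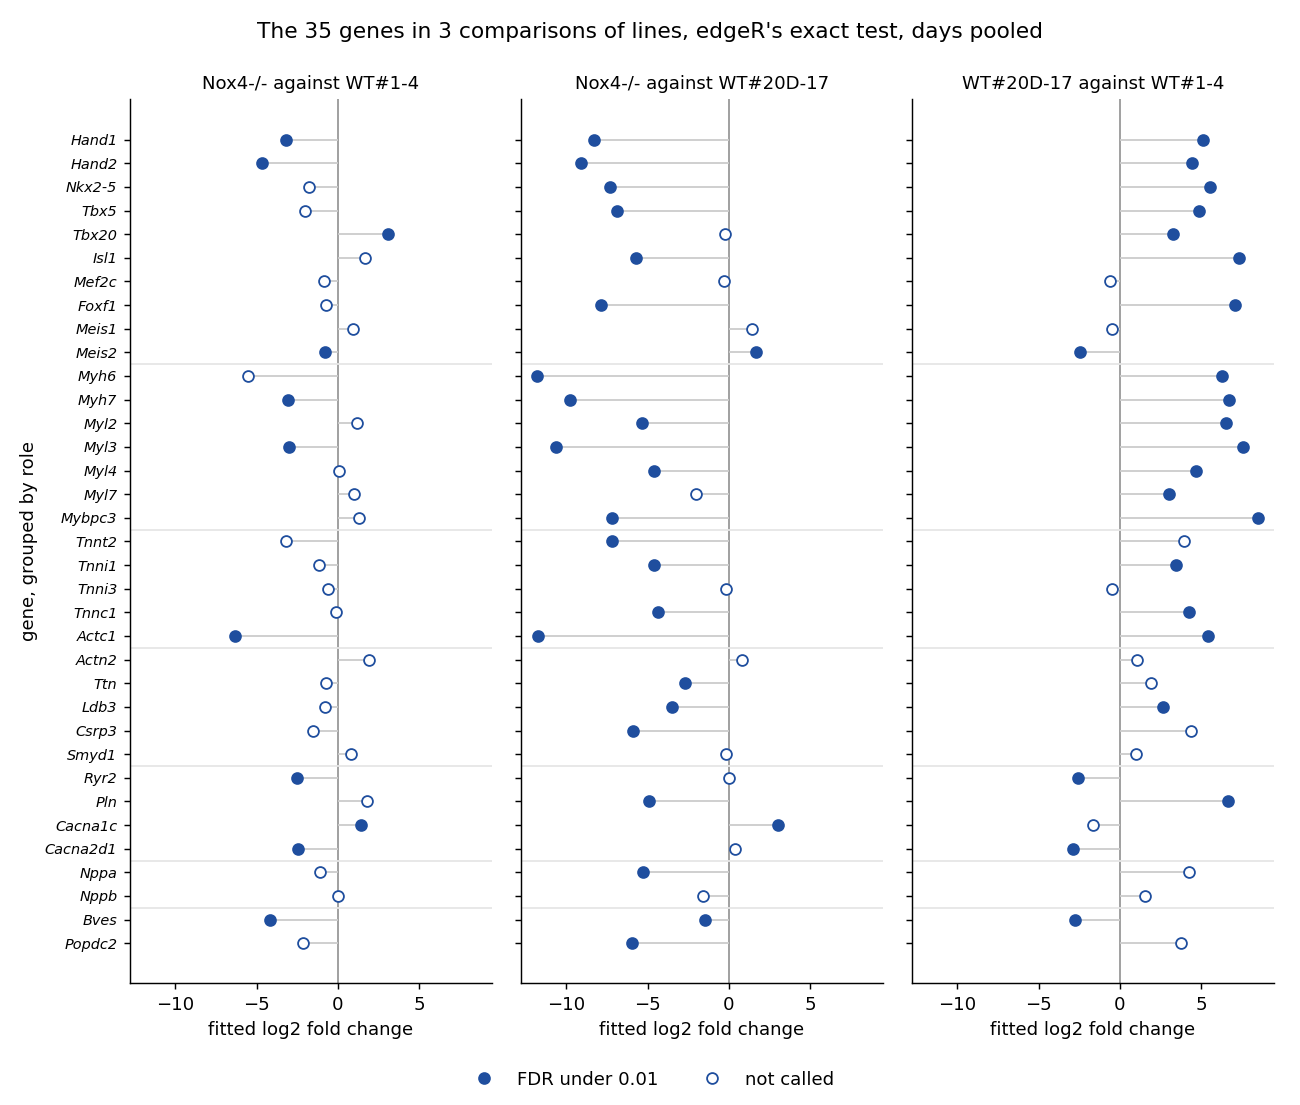
Fitted log2 fold change of each of the 35 genes in 3 comparisons of lines by edgeR's exact test with the days pooled. Filled points passed an FDR under 0.01 and open points did not. In the left panel 9 filled points lie below 0 and 2 above it, in the middle panel 23 and 2, and in the right panel 4 and 19.

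With the line as the unit, the counts of each line were summed over the days and 2 wild type lines were compared with 2 Nox4-/- lines. Of the 28 heart genes that passed the filter on low counts, 0 passed an FDR under 0.05 in edgeR's quasi-likelihood test, as 0% of all 20229 genes did. At an unadjusted p under 0.05 there were 11, and 8.05% of all genes. DESeq2 called 12 of the 35 genes, all lower, and 4.53% of all genes. The median log2 fold change of the 28 genes was -2.99, and that of all genes -0.00. Without WT#1-4 23 genes were called, 21 of them lower, with 19.6% of all genes, and without WT#20D-17 there were 0, with 0.0519% of all genes. In these fits the lone wild type line is assumed to vary like the Nox4-/- lines.

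Change over time was tested on the mean of both genotypes in all 20 libraries with edgeR's quasi-likelihood test at an FDR under 0.05. Without a replicate block, 0 of the 35 genes differed over the days, where 6.5% of all genes did, with 2 at an unadjusted p under 0.05 (19% of all genes) and 4 called by DESeq2 (9.78%). Each line was sampled on all days. A replicate block for the line gave 9, against 25.1% of all genes: Mef2c, Meis1, Myl4, Myl7, Tnnt2, Tnni1, Tnni3, Ldb3 and Nppb. Leaving out 1 line gave 10 genes without WT#1-4 (12.6% of all genes), 2 without WT#20D-17 (18.3%) and 0 without either Nox4-/- line (0%). With the block these were 19 genes without WT#1-4 (28.6%), 13 without WT#20D-17 (35.4%), and 0 without #5-8 (0.311%) or #5-23 (0.069%). Between day 0 and day 7, 0 genes were called without the block, with 4% of all genes. At an unadjusted p under 0.05 there were 8 (19.9% of all genes), and 6 by DESeq2 (6.84%). With the block 9 rose, against 21.4% of all genes called in either direction. They included Tnnt2 (log2 fold change 3.34, FDR 0.0205), Mef2c (2.87, FDR 0.00962) and Myl7 (4.14, FDR 0.000774). Here leaving out a line gave 12 genes without WT#1-4 (12.5% of all genes), 2 without WT#20D-17 (13.7%) and 0 without either Nox4-/- line (0%). With the block these were 18 without WT#1-4 (26.1%), 10 without WT#20D-17 (29.9%), and 0 without #5-8 (0.429%) or #5-23 (0.123%). The median over the 35 genes was 2.22 with and without the block, against 0.05 and 0.06 over all genes.

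Between day 0 and day 14, Myl7 (log2 fold change 5.30, FDR 0.028) and Nppb (4.26, FDR 0.0113) rose without the block, where 18.9% of all genes were called. With the line as a replicate block 10 rose and 1 fell, where 38.6% of all genes were called. Nppb then had 4.08 (FDR 0.000818), Ldb3 2.49 (FDR 0.000606), Tnnt2 3.66 (FDR 0.0083) and Meis1 2.15 (FDR 0.00547), and Bves fell by 1.45 on the log2 scale (FDR 0.0393). DESeq2 called 10 genes, and 15.1% of all genes. The call for Myl7 and Nppb was lost without either Nox4-/- line, with 0 of the 35 and 0.00493% of all genes called. Without WT#1-4 14 genes were called (25% of all genes) and without WT#20D-17 5 were (32.4%). With the block there were 19 without WT#1-4 (37.7%), 12 without WT#20D-17 (45.8%), 2 without #5-8 (14.5%) and 4 without #5-23 (13.6%). Only 27 of the 35 genes passed the filter on low counts in the fits over days without WT#20D-17. Hand1, Hand2, Nkx2-5, Tbx20, Isl1, Myh6, Myh7 and Actc1, which had their largest changes in WT#20D-17, did not pass in the average over lines, with or without the block. Whether the course differed between the genotypes was tested as the interaction of genotype and day, in which 0 of the 35 genes passed, as 0% of all genes did, with 0 at an unadjusted p under 0.05 and 0 by DESeq2. With the replicate block 0 of the 35 passed, 5 had an unadjusted p under 0.05, and 0.0208% of all genes passed. Leaving out a wild type line leaves 1 wild type library per day, so such a fit cannot tell the genotype from the line. The wild type course is then that of the remaining line alone, which is WT#20D-17 in the fits that follow. Without WT#1-4 1 gene passed (1.15% of all genes), and 14 did with the block (11.2%).

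Other genes of the heart lineage were counted from lists of 30 genes of early cardiac mesoderm and the heart fields and 29 further genes of the sarcomere and the conduction system. Of the early genes 7 were lower and 1 was higher in the Nox4-/- lines than in WT#1-4, with a median log2 fold change of -0.20, by the same exact test and background. Those with the lowest FDR were Gata5, a zinc finger factor of the heart (-5.56, FDR 1.49e-16), Tbx3, a T-box factor of the conduction system (-3.47, FDR 1.16e-07), Mesp1, which marks the first cardiac mesoderm (-2.53, FDR 1.25e-06), and Pdgfra, a receptor of mesenchyme (-1.83, FDR 0.000909). Pdgfra and Kdr, which is also in this list, are in pathway lists that the study chose on these samples. A call of either is therefore not independent evidence. WT#20D-17 was higher than WT#1-4 in 19 of the 30 and lower in 0, where 9.96% and 7.78% of all genes were called. Mesp1 was at 5.43 CPM in WT#20D-17 on day 3 and at 0.892 CPM or less in all other libraries. Gata4, a partner of Nkx2-5 and Tbx5, was at 84.5 to 655 CPM in WT#20D-17 and at 3.23 CPM or less elsewhere.

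Of the further sarcomere and conduction genes 11 were lower and 0 were higher in the Nox4-/- lines than in WT#1-4, with a median of -1.35. Over all genes 3.97% were called lower and 1.65% higher. Among them were Popdc3, the third Popeye gene (-4.02, FDR 1.22e-34), Tpm2, a tropomyosin (-3.61, FDR 6.4e-22), and Des, the muscle intermediate filament desmin (-3.31, FDR 5.13e-10). Des was at 380 to 1049 CPM in WT#1-4 and at 7.43 to 180 CPM in the Nox4-/- lines, and at 12.7 to 22.1 CPM in WT#20D-17, against which it was higher in the Nox4-/- lines (1.69, FDR 0.00562). WT#20D-17 was higher than WT#1-4 in 8 of the 29 genes and lower in 5, where 9.96% and 7.78% of all genes were called.

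Markers of other cell types also differed between the lines. The summed level of 6 smooth muscle markers, among them Acta2 and Tagln, was 92.9 to 1094 CPM in WT#20D-17, 13.3 to 94.7 CPM in WT#1-4, 6.87 to 30.6 CPM in Nox4-/- #5-8 and 4.52 to 7.84 CPM in Nox4-/- #5-23. Of these 6, 4 were lower in the Nox4-/- lines than in WT#1-4, and 0 were higher. These calls are from the pooled exact test (FDR under 0.01), which called 3.97% of all genes lower and 1.65% higher. The sum of 8 fibroblast and feeder markers such as Col1a1 was 26.4 to 2828 CPM in WT#20D-17 and 87.4 to 146 CPM in WT#1-4. It was 16.5 to 33.8 CPM in the Nox4-/- lines, where 6 of the 8 were lower than in WT#1-4 by that test. Acta2, and Col3a1 and Thy1 of the fibroblast markers, are in pathway lists that the study chose on these samples. Their part in these counts is therefore not independent evidence. Prrx1 among the 8 was at 16 to 29.9 CPM in WT#1-4 and at 0.574 to 4.17 CPM in WT#20D-17. Twist1 was also higher in WT#1-4 than in WT#20D-17, at 17.9 to 31 CPM against 2.54 to 14.5 CPM. Of 14 skeletal muscle markers, 6 were above 3 counts on any day in WT#1-4, 9 in WT#20D-17, 7 in Nox4-/- #5-8 and 4 in Nox4-/- #5-23. Among them Pax7 reached 83.2 CPM in WT#1-4, 45.3 CPM in Nox4-/- #5-23 and 33.9 CPM in Nox4-/- #5-8, Acta1 reached 53.3 CPM in WT#20D-17, and Myog had at most 2 counts in any library. Of the 10 cardiomyocyte markers, all of them among the 35 genes, 10 were above 3 counts on any day in WT#20D-17, 9 in WT#1-4, 7 in Nox4-/- #5-8 and 6 in Nox4-/- #5-23, and Myh6 was at 0 in both Nox4-/- lines. Their sum did not keep this order. It was 118 to 234 CPM in WT#1-4, where most of it was Ryr2, and 15 to 358 CPM in WT#20D-17. It was 43.4 to 53.6 CPM in Nox4-/- #5-8 and 27.4 to 72.8 CPM in Nox4-/- #5-23. On day 0 WT#20D-17 had the lowest sum of all lines. The sum of 6 trophoblast and extraembryonic markers was 169 CPM on day 14 in WT#20D-17 and 24.9 CPM or less in all other libraries. Most of that sum was Prl3d1, at 136 CPM in this 1 library. Ascl2 of the same list was at 5.64 to 14.2 CPM in the Nox4-/- lines. It was at 0.494 to 2.69 CPM in WT#1-4 and at 2.01 to 8.52 CPM in WT#20D-17. The sum of 4 endothelial markers was 282 to 439 CPM in WT#1-4 and 17.7 to 186 CPM in WT#20D-17. It was 115 to 224 CPM in Nox4-/- #5-8 and 159 to 271 CPM in Nox4-/- #5-23. In WT#1-4 most of it was Tek, at 246 to 380 CPM, and Pecam1, at up to 102 CPM. Kdr and Cdh5 instead reached their highest levels in WT#20D-17, at 55.9 and 95.6 CPM against 2.88 and 28.3 CPM in WT#1-4. The part of these cells in the levels of the 35 genes was not tested.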

How the data were processed

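RNA was sequenced from 20 EB cultures, 1 library for each of 4 iPSC lines on 5 days. According to the study's methods and the submitters' processing notes, stranded mRNA libraries were aligned to GRCm38 with STAR 2.6.0c and quantified with RSEM 1.3.1. The authors deposited expected counts per gene, not normalized. RSEM divides reads that fit several genes, so 10038 genes held decimals, and the counts were rounded to whole numbers here. The strand setting of the counting is not given in the sources used here.

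Gene symbols were found for 55394 of 55573 identifiers. The 35 genes, the other lists and the tests were chosen with earlier results of these data known. CPM used TMM factors, and figures add a pseudocount of 1 before taking log2. Lines were compared over pooled days with edgeR 4.0.16's exact test on 33860 genes with a count (FDR under 0.01). Quasi-likelihood tests (FDR under 0.05) compared the lines with days summed (20229 genes) and the days in all libraries (19240 genes), after filterByExpr. R 4.3.3, limma 3.58.1 and DESeq2 1.42.0 were also used, the last as an alternative. The exact, quasi-likelihood and DESeq2 fits were tested on simulated counts. P-values measure the spread between these libraries. The study's EBSeq-HMM test was not used.

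Replicate numbers stand for lines, so the same line pairs the days. Deviations of a line from its group's mean correlated between days by 0.541 to 0.921 in the wild type and by 0.405 to 0.864 in the Nox4-/- lines. Values in every library are given for the 14 genes with the widest range of log2(TMM CPM + 1) and for Hand1, Cacna1c, Cacna2d1 and Bves, 15 genes in all, and the others by ranges. Of the further heart lists the 4 genes with the lowest FDR are named, apart from 1 that is not reported here, while Gata4 and Srf were named after their values were seen. Alternatives were another threshold, test, normalization or filter, the other wild type line, the line as a block, and leaving out each line or day.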

Additional observations from a re-analysis of the deposited data

How the results depend on the processing

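Among 35 genes, the 11 that differed between the Nox4-/- lines and WT#1-4 (5.62% of all genes) became 7 with filterByExpr (19 genes tested, 9.95%). They became 25 against WT#20D-17 instead (25.8%) and 22 with both wild type lines (12.1%). Against WT#20D-17, Meis2 had the opposite direction and passed (1.68), while Ryr2 (0.03), Tbx20 (-0.23) and Cacna2d1 (0.41) had values of the opposite sign that did not pass. The cause was not tested. Leaving out a line or day gave 7 to 13 genes against WT#1-4 (3.29% to 5.89% of all genes). Leaving out a day gave 12 to 25 between the wild type lines (23 in all, 12.5% to 18.8%). It gave 0 to 4 between the Nox4-/- lines (3 in all, 0.803% to 2.81%). Between the Nox4-/- lines a quasi-likelihood test with day gave 8 (6.31%). With the line as unit DESeq2 gave 12 (0 in the main test, 4.53%). With the line as a replicate block, the count over all days went from 0 to 9 (6.5% to 25.1%). On day 7 it went from 0 to 9 (4% to 21.4%) and on day 14 from 2 to 11 (18.9% to 38.6%). It stayed 0 for the interaction. Without the block, no filter gave 1 (3.36%) and DESeq2 4 (9.78%) over all days, and DESeq2 gave 6 on day 7 (6.84%). On day 14 DESeq2 gave 10 (15.1%) and an FDR under 0.01 gave 0 (8.28%). Leaving out a line gave 0 to 10 over all days, 0 to 12 on day 7, 0 to 14 on day 14 and 0 to 1 for the interaction, and with the replicate block, chosen after seeing the data, 0 to 19, 0 to 18, 2 to 19 and 0 to 14. The shares of all genes beside the largest of these counts are given with the results above. For single genes, 817 alternative values kept their direction and call, 73 gained a call, 49 lost it and 4 reversed. Depth limits genes with few counts, such as Tbx5, Pln and Myl2 outside WT#20D-17.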
